A study of Mus musculus with 8 samples.

Results

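Semaphorins, plexins and neuropilins were followed in mouse bone marrow-derived macrophages, which are phagocytes grown in culture from bone marrow, on 8 Affymetrix mouse gene arrays. The genes were taken by symbol, as the semaphorins of classes 3 to 7, plexins A to D and neuropilins 1 and 2, and 31 of the 19938 named genes on the array met that rule: 20 semaphorins, 9 plexins and 2 neuropilins. They are represented by 33 probe sets, and where a gene had more than 1, the brightest over all 8 arrays stood for it. The cells were untreated, or were exposed for 6 h to IFN-gamma with LPS (lipopolysaccharide, from the outer membrane of Gram-negative bacteria), to IL-4 with IL-13, or to LPS with IL-4 and IL-13, with 2 arrays per group. There was no group with LPS or IFN-gamma by itself, and the LPS-containing groups differ from each other in IFN-gamma as well as in IL-4 and IL-13. Mouse strain, sex, age and doses are not stated in the labels. The labels also do not say whether replicate arrays stem from different cultures or mice, and each p-value therefore reflects array-to-array spread that may be technical.

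Semaphorins are guidance ligands: class 3 members are secreted, classes 4 to 6 span the membrane, and Sema7a is held by a lipid anchor. Plexins are their main receptors and carry an intracellular domain that switches off small GTPases of the Ras and Rap type. Neuropilins lack a large signalling domain and serve as co-receptors, with class A plexins for secreted semaphorins and with VEGF receptors for VEGF. In macrophages and dendritic cells these molecules are known for steering migration, cell contacts and activation.

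Values are log2 signals, and a difference of 1 is a 2-fold change. Differences are given ± SE from a limma model over the 4 groups, and the words rose and fell are kept for an adjusted p, taken over all 19938 named genes, under 0.05. Probe sets differ in brightness, so levels are not compared between genes, except that cell type markers are set beside the median named gene. In bulk RNA, fewer cells of a type and less RNA per cell cannot be told apart. The 3 comparisons with untreated cells share the same 2 untreated arrays, and the comparisons between treatments share arrays too. Array medians lay between 6.12 and 6.20, and replicate arrays correlated at r = 0.9939 to 0.9974 across named genes, which are not independent replicates.

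Under IFN-gamma/LPS no plexin rose and 5 of 9 fell, while 7 of 20 semaphorins rose and 2 fell, and Nrp1 fell as Nrp2 rose. Of those 7 semaphorins, Sema3d, Sema4f, Sema4g and Sema7a lost the call when 1 array was left out. Under IL-4/IL-13, 1 plexin rose and 3 fell, and 3 semaphorins rose and 1 fell. Under LPS/IL-4/IL-13, 0 plexins rose and 6 fell, and 6 semaphorins rose and 2 fell. Leaving out 1 array also lost the IL-4/IL-13 rises of Plxnd1, Sema4a and Sema4g. For LPS/IL-4/IL-13 it lost the rises of Sema3d, Sema6a and Sema7a and the falls of Sema4b and Plxnb3. The difference between plexins and semaphorins was not tested. Over all 31 genes, 8 rose and 8 fell under IFN-gamma/LPS, where 51.9% of all named genes were called, 23.6% higher and 28.4% lower. Under IL-4/IL-13, 5 rose and 5 fell against a background of 20.2% (7.83% higher and 12.3% lower), and under LPS/IL-4/IL-13, 7 rose and 9 fell against 45.6% (20.3% higher and 25.4% lower). The share of the family called was 51.6%, 32.3% and 51.6%, near the background under IFN-gamma/LPS. Calls of at least 2-fold numbered 7, 2 and 9, where 17%, 2.44% and 13.9% of named genes had them.

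Between treatments, LPS/IL-4/IL-13 was above IFN-gamma/LPS for 5 genes and below it for 3, where 19.7% of named genes were called, 12.1% higher and 7.62% lower. It was above IL-4/IL-13 for 7 and below it for 7, against 36.7% (14.1% higher and 22.6% lower). IFN-gamma/LPS was above IL-4/IL-13 for 8 and below it for 8, against 41.6% (15.5% higher and 26.1% lower). Calls of at least 2-fold numbered 3, 6 and 7 in these comparisons, against 3.31%, 11.2% and 15.2%.

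Median differences of the family from untreated cells were 0.09, 0.16 and 0.09, beside 0.11, 0.07 and 0.09 over all named genes. Genes called with at least a 2-fold change in 1 or more of the 6 pairwise comparisons numbered 11. Another 11 were called only at smaller sizes, and 9 were called in none. The same split was not counted over all named genes, so nothing is read from it about the family.

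**Figure D1:**
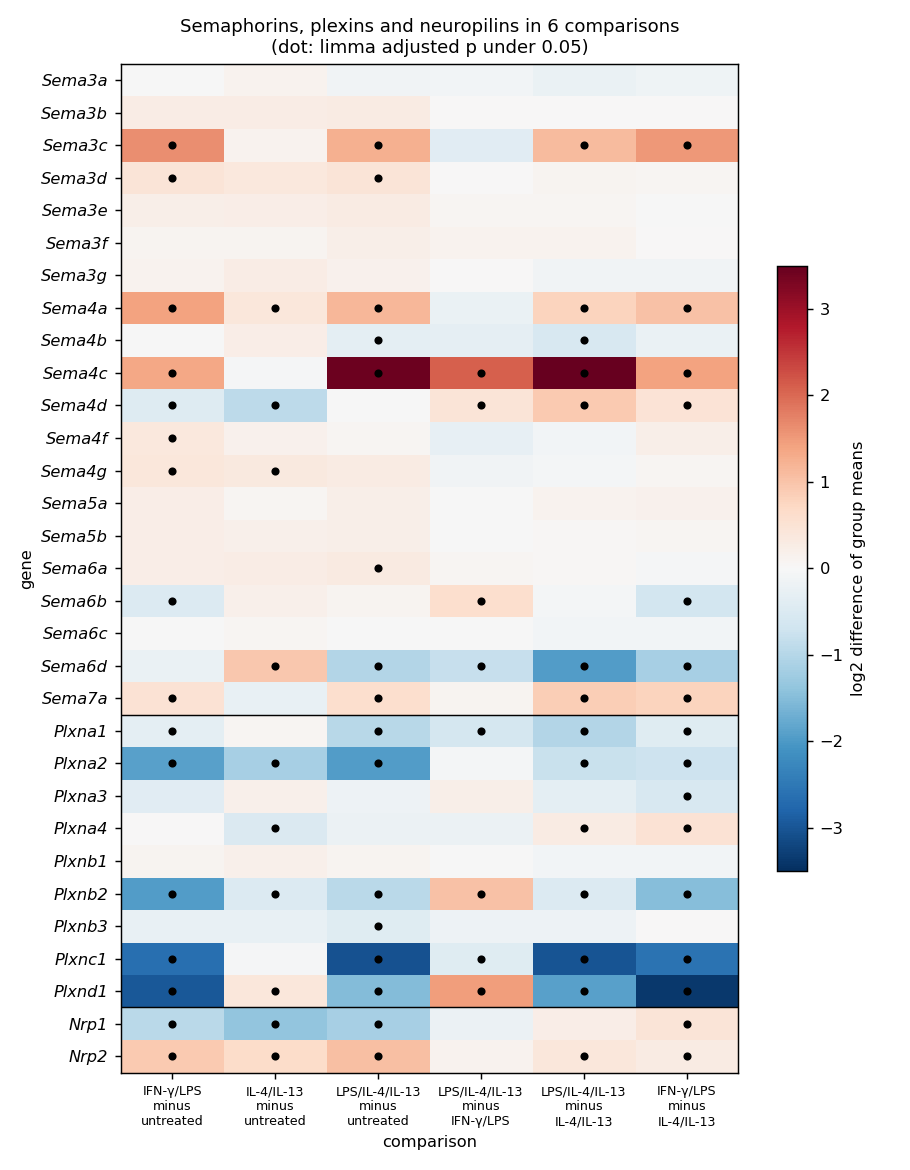
Log2 difference of group means for all 31 genes (rows) in the 6 pairwise comparisons (columns), red for higher and blue for lower in the group named first, with a dot where the limma adjusted p was under 0.05. The 9 plexins are mostly blue or blank for IFN-gamma/LPS and LPS/IL-4/IL-13 minus untreated, where 5 and 6 of them fell and 0 rose, and Nrp1 and Nrp2 have opposite colours in the first 3 columns.

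Sema4c, a membrane semaphorin that binds plexin B2, had the largest increase in the family (probe set 10353899). Its log2 signal was 6.73 and 6.72 in untreated cells, 7.97 and 8.17 under IFN-gamma/LPS, 6.76 and 6.59 under IL-4/IL-13, and 10.17 and 10.14 under LPS/IL-4/IL-13. The untreated and IL-4/IL-13 arrays overlapped, the IFN-gamma/LPS arrays lay above both, and both LPS/IL-4/IL-13 arrays lay above all the others. Against untreated cells it rose 2.54-fold under IFN-gamma/LPS (1.35 ± 0.10, adjusted p = 3.17e-07) and 10.8-fold under LPS/IL-4/IL-13 (3.43 ± 0.10, adjusted p = 1.01e-10), and the IL-4/IL-13 difference was -0.05 ± 0.10 (adjusted p = 0.765). LPS/IL-4/IL-13 stood 4.24-fold above IFN-gamma/LPS (2.09 ± 0.10, adjusted p = 5.60e-08) and 11.2-fold above IL-4/IL-13 (3.48 ± 0.10, adjusted p = 1.16e-10). Sema4c was the only gene of the 31 called above all 3 other groups under LPS/IL-4/IL-13, a pattern that 2.95% of all named genes had.

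Promoter sequence is shown for Sema4c, Sema4a, Plxnc1 and Plxnd1, from RefSeq on GRCm38.p6, as the 250 bases before an annotated start. Each window shown holds a match to a pattern searched. Windows of Sema3c, Sema6d, Plxna2 and Plxnb2 held no match and are not shown. Group means of these genes spanned 1.64 to 1.965, more than those of Sema4a (1.42). The promoter table held 37 windows for 26 of the 31 genes, and none for Plxna1, Plxna4, Sema3b, Sema3f and Sema6a. Sema4c has 2 windows, and the one at chr1:36558382-36558631 on the minus strand held a match to the NF-kB consensus, shown in capitals, 186 to 177 bases before the start.
Sema4c: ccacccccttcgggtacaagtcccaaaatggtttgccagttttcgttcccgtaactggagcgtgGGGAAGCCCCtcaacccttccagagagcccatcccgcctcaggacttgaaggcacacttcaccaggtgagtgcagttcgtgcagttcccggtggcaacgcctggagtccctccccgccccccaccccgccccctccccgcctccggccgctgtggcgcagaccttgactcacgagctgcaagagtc
That consensus was found in 3 of the 37 windows (of Sema4a, Sema4c and Plxna3) and in 7.25% of all 32851 windows of the same length. Both strands were searched for it and for 4 other patterns. TTC and GAA with 3 bases between them, for STAT sites, were found in 0 of the 37 windows and 7.02% of all windows, and with 4 bases between them, for STAT6, in 4 and 5.85%. GAAA and GAAA with 2 bases between, for IRF factors, was found in 2 windows and 2.98%, and GAGGAA, the core of PU.1 sites, in 12 windows of 10 genes and 23.3%. In Sema4f a STAT6 and a PU.1 match overlap. A match describes letters in the window and is neither a site nor a cause.

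Sema4a, a membrane semaphorin known for costimulating T cells, rose in every treatment (probe set 10499378). Its arrays read 8.05 and 7.97 in untreated cells, 9.33 and 9.53 under IFN-gamma/LPS, 8.47 and 8.33 under IL-4/IL-13, and 9.17 and 9.20 under LPS/IL-4/IL-13. Sema4a and Nrp2 were the 2 genes called above untreated in all 3 treatments, a pattern of 3.11% of named genes. All 6 treated arrays lay above both untreated arrays, and the LPS-containing groups lay above the IL-4/IL-13 arrays. The increases were 1.42 ± 0.10 (2.68-fold, adjusted p = 1.08e-07), 0.39 ± 0.10 (adjusted p = 0.0148) and 1.18 ± 0.10 (2.26-fold, adjusted p = 7.58e-07). The IL-4/IL-13 call was lost without untreated array 1 (0.43, adjusted p = 0.0692), without untreated array 2 (0.35, adjusted p = 0.117) and without IL-4/IL-13 array 1 (0.32, adjusted p = 0.112). The LPS-containing groups differed from each other by -0.25 ± 0.10 (LPS/IL-4/IL-13 minus IFN-gamma/LPS, adjusted p = 0.117), which was called after quantile normalization (-0.28, adjusted p = 0.0427). Of the 4 RefSeq windows of Sema4a, the one at chr3:88459102-88459351 on the minus strand held an NF-kB consensus match and a PU.1 core, both in capitals, and another window held 2 PU.1 cores and is not shown.
Sema4a: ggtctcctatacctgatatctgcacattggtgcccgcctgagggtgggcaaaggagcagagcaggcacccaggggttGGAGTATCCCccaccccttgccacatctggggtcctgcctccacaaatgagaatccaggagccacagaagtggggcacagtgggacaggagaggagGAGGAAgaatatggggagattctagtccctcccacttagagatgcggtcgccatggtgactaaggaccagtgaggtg

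Sema3c, a secreted semaphorin that uses neuropilins, rose in both LPS-containing groups (probe set 10519886). The signals were 5.31 and 5.30 untreated, 6.81 and 7.08 under IFN-gamma/LPS, 5.30 and 5.58 under IL-4/IL-13, and 6.73 and 6.35 under LPS/IL-4/IL-13. All 4 arrays with LPS lay above all 4 arrays without it. Sema3c rose 3.12-fold under IFN-gamma/LPS (1.64 ± 0.15, adjusted p = 1.44e-06) and 2.35-fold under LPS/IL-4/IL-13 (1.24 ± 0.15, adjusted p = 2.26e-05), with 0.14 ± 0.15 under IL-4/IL-13 (adjusted p = 0.555). The difference between the LPS-containing groups was -0.41 ± 0.15 and did not pass (adjusted p = 0.0884), but was called without LPS/IL-4/IL-13 array 1 (-0.60, adjusted p = 0.0252) and in the fit without dim genes (adjusted p = 0.0374).

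Sema6d, a membrane semaphorin that binds plexin A1, rose under IL-4/IL-13 and fell under LPS/IL-4/IL-13 (probe set 10475544). It read 6.72 and 6.67 in untreated cells, 6.40 and 6.55 under IFN-gamma/LPS, 7.70 and 7.55 under IL-4/IL-13, and 5.49 and 5.83 under LPS/IL-4/IL-13. The 4 groups did not overlap, with IL-4/IL-13 highest and the same cytokines plus LPS lowest. It rose by 0.93 ± 0.13 under IL-4/IL-13 (adjusted p = 0.000249), and fell by 1.03 under LPS/IL-4/IL-13 (SE 0.13, adjusted p = 2.53e-05). LPS/IL-4/IL-13 was 3.90-fold below IL-4/IL-13 (-1.96 ± 0.13, adjusted p = 9.57e-08) and 1.76-fold below IFN-gamma/LPS (-0.81 ± 0.13, adjusted p = 0.000573), while IFN-gamma/LPS minus untreated was -0.22 ± 0.13 (adjusted p = 0.167).

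**Figure D2:**
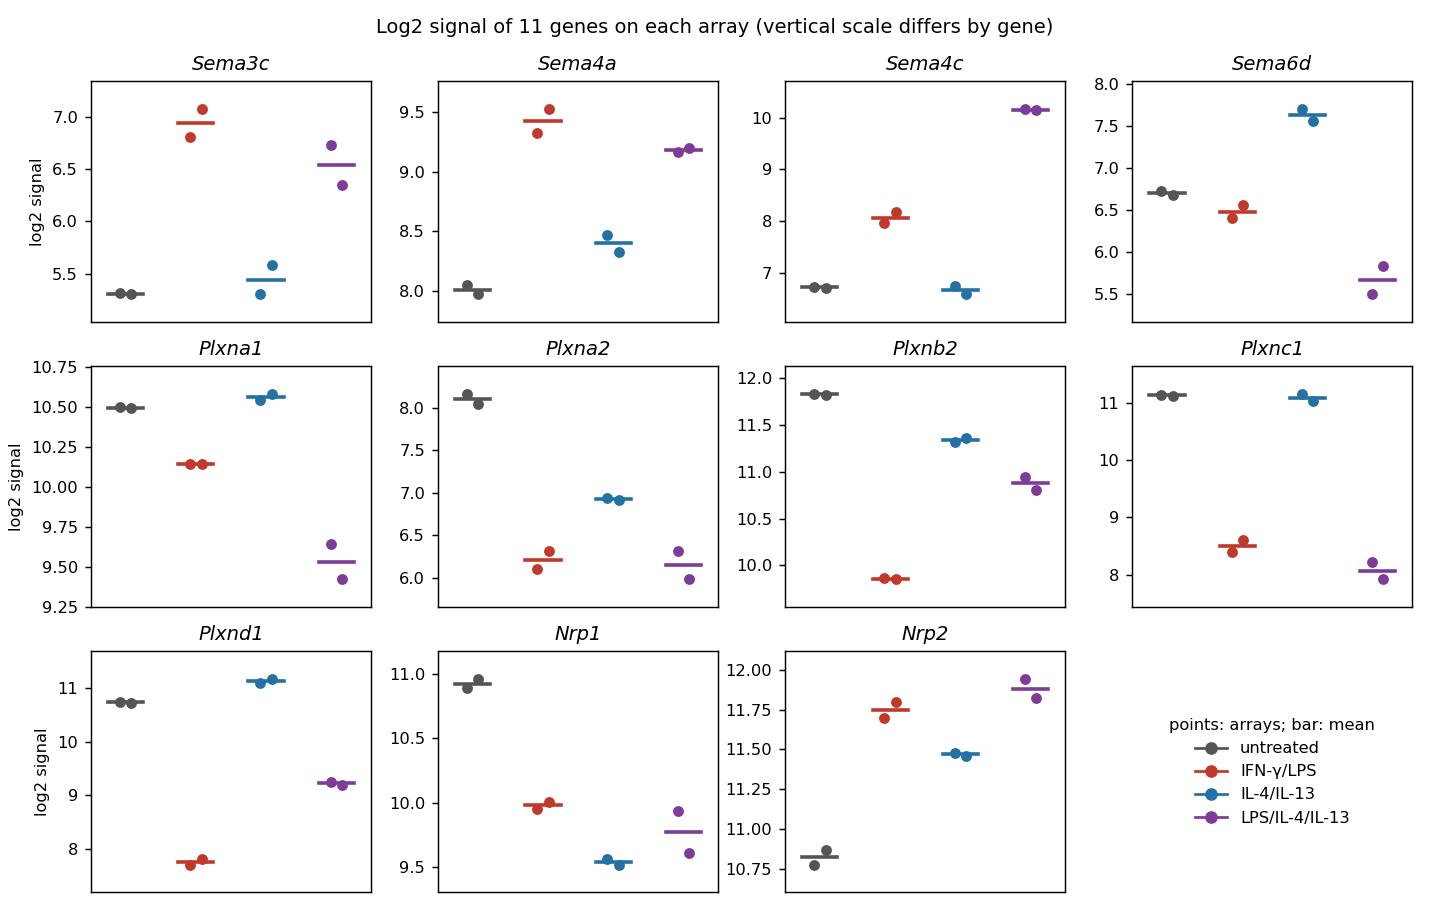
Log2 signal on each of the 8 arrays for the 11 genes called with at least a 2-fold change, 1 panel per gene, with points for arrays and a bar for the mean of the 2 arrays. The vertical scale differs by gene. Sema4c is highest under LPS/IL-4/IL-13 at 10.17 and 10.14, and Plxnc1 reads 7.92 to 8.61 in both LPS-containing groups against 11.02 to 11.15 in the others.

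Plexins gave the largest decreases. Plxnd1, a receptor for Sema3e that also pairs with neuropilins (probe set 10547100), read 10.75 and 10.72 untreated, 7.71 and 7.82 under IFN-gamma/LPS, 11.10 and 11.17 under IL-4/IL-13, and 9.26 and 9.20 under LPS/IL-4/IL-13. No 2 groups overlapped. It fell 7.84-fold under IFN-gamma/LPS (-2.97 ± 0.08, adjusted p = 2.68e-11) and 2.84-fold under LPS/IL-4/IL-13 (-1.50 ± 0.08, adjusted p = 1.19e-08), and rose by 0.40 ± 0.08 under IL-4/IL-13 (adjusted p = 0.00353). That small increase was not called without IL-4/IL-13 array 2 (0.37, adjusted p = 0.0516). LPS/IL-4/IL-13 lay 2.76-fold above IFN-gamma/LPS (1.47 ± 0.08, adjusted p = 1.03e-07) and 3.75-fold below IL-4/IL-13 (-1.90 ± 0.08, adjusted p = 1.68e-09), and the IFN-gamma/LPS and IL-4/IL-13 groups stood 10.3-fold apart.

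Plxnc1, the receptor for Sema7a, fell in both LPS-containing groups (probe set 10372028). The arrays gave 11.14 and 11.12 untreated, 8.39 and 8.61 under IFN-gamma/LPS, 11.15 and 11.02 under IL-4/IL-13, and 8.23 and 7.92 under LPS/IL-4/IL-13. Untreated and IL-4/IL-13 arrays overlapped, and the arrays with LPS lay far below. The decreases were 6.19-fold (-2.63 ± 0.11, adjusted p = 1.36e-09) and 8.31-fold (-3.06 ± 0.11, adjusted p = 4.68e-10), and IL-4/IL-13 gave -0.04 ± 0.11 (adjusted p = 0.803). The further step from IFN-gamma/LPS to LPS/IL-4/IL-13 (-0.42 ± 0.11, adjusted p = 0.0173) was lost without IFN-gamma/LPS array 2 (-0.32, adjusted p = 0.128), without LPS/IL-4/IL-13 array 2 (-0.27, adjusted p = 0.0816) and in a fit of only those 4 arrays (adjusted p = 0.113).

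Promoter windows of Plxnc1 and Plxnd1 are shown because these 2 receptors fell most. The Plxnc1 window is chr10:94944846-94945095 and the Plxnd1 window is chr6:115995006-115995255, both on the minus strand. Capitals mark 2 PU.1 cores in each and, in Plxnc1, an IRF match 118 to 109 bases before the start.
Plxnc1: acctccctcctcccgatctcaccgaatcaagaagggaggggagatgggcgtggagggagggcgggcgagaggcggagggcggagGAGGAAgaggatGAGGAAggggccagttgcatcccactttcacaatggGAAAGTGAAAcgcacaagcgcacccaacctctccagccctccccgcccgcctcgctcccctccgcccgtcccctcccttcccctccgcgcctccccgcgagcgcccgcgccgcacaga
Plxnd1: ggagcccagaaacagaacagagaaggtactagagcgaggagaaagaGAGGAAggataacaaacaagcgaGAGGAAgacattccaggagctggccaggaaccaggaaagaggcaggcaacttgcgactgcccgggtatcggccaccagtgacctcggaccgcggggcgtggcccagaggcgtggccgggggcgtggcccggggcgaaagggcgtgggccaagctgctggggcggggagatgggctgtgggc
The windows of Plxna2 and Plxnb2, which also fell, held none of the 5 patterns, nor did those of Sema3c, Sema6d and Nrp2. The window of Nrp1, which fell too, held a PU.1 core 92 to 87 bases before the start.

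Plxnb2, a receptor for Sema4c and other class 4 semaphorins, fell in all 3 treatments (probe set 10431424). Its signals were 11.83 and 11.82 untreated, 9.87 and 9.85 under IFN-gamma/LPS, 11.32 and 11.36 under IL-4/IL-13, and 10.94 and 10.81 under LPS/IL-4/IL-13. The groups were fully separate, with IFN-gamma/LPS lowest. The falls were 3.90-fold (-1.96 ± 0.07, adjusted p = 2.30e-10), 1.40-fold (-0.48 ± 0.07, adjusted p = 0.000288) and 1.93-fold (-0.95 ± 0.07, adjusted p = 1.83e-07). As for Plxnd1, LPS/IL-4/IL-13 lay between the other treatments, 2.02-fold above IFN-gamma/LPS (adjusted p = 5.30e-07) and 1.38-fold below IL-4/IL-13 (adjusted p = 0.000124). These were the 2 genes of the family with that order, which 5.24% of all named genes had, and 0 had the reverse order (3.38% of named genes). Plxnb2, Plxna2 and Nrp1 were the 3 genes called below untreated in all 3 treatments (7.67% of named genes).

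Plxna2, a receptor for class 3 and class 6 semaphorins, also fell in all 3 treatments (probe set 10352867). It read 8.16 and 8.04 untreated, 6.10 and 6.31 under IFN-gamma/LPS, 6.94 and 6.91 under IL-4/IL-13, and 6.32 and 5.98 under LPS/IL-4/IL-13. The LPS-containing groups overlapped each other and lay below IL-4/IL-13, which lay below untreated. Plxna2 fell 3.72-fold, 2.26-fold and 3.86-fold (differences -1.90, -1.18 and -1.95, each ± 0.13, adjusted p = 9.40e-08, 4.27e-05 and 9.07e-08).

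Plxna1, the receptor of Sema6d that also associates with Trem2 and its adaptor Tyrobp, was lowest under LPS/IL-4/IL-13 (probe set 10546184). Signals were 10.50 and 10.49 untreated, 10.14 and 10.14 under IFN-gamma/LPS, 10.54 and 10.58 under IL-4/IL-13, and 9.64 and 9.42 under LPS/IL-4/IL-13. The LPS/IL-4/IL-13 arrays lay below all others, the IFN-gamma/LPS arrays next, and the IL-4/IL-13 arrays just above the untreated ones. It fell by 0.36 (SE 0.08, adjusted p = 0.00339) under IFN-gamma/LPS and by 0.96 (SE 0.08, adjusted p = 1.02e-06) under LPS/IL-4/IL-13, with 0.07 ± 0.08 under IL-4/IL-13 (adjusted p = 0.613). Plxna1, Plxnc1 and Sema6d were the 3 genes called below all 3 other groups under LPS/IL-4/IL-13, a pattern of 1.8% of named genes. They were also the 3 genes below both other treatments (1.97% of named genes), and Sema4c and Sema4d the 2 above both (3.59%). The Plxnc1 call there rests on the step described above, and Sema4d over IFN-gamma/LPS was not called with its probe sets averaged (0.17, adjusted p = 0.252). A dimmer Sema4d probe set did not show the pattern. It read 6.88 and 6.86 under LPS/IL-4/IL-13, below IFN-gamma/LPS (6.92 and 7.03) and overlapping IL-4/IL-13 (6.88 and 6.81).

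**Figure D3:**
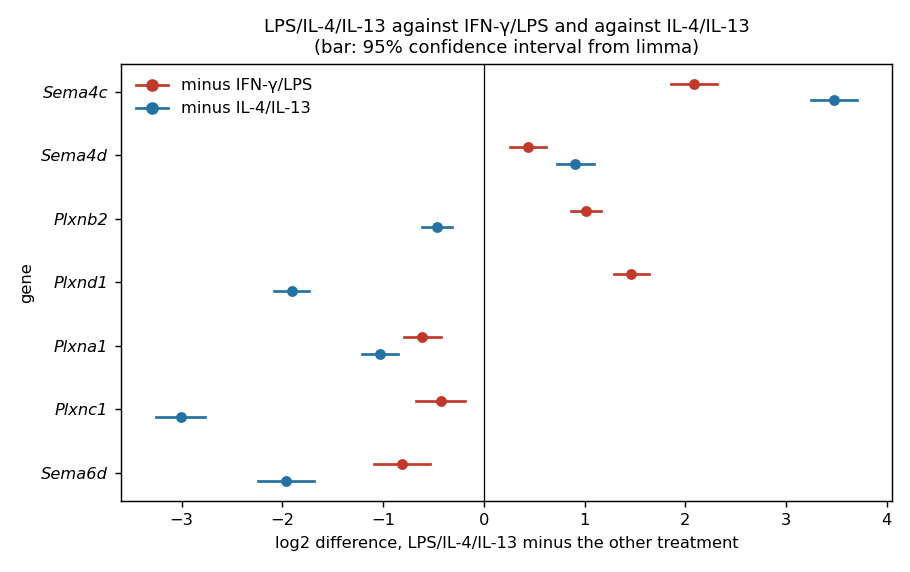
Log2 difference of LPS/IL-4/IL-13 minus IFN-gamma/LPS (red) and minus IL-4/IL-13 (blue) for 7 genes called in both comparisons, with 95% confidence intervals from limma. Both differences share the LPS/IL-4/IL-13 arrays. Sema4c and Sema4d are above 0 in both (Sema4d by its brighter probe set, and not called over IFN-gamma/LPS with both sets averaged). The dimmer Sema4d set, not drawn, lay below IFN-gamma/LPS and overlapped IL-4/IL-13. Plxna1, Plxnc1 and Sema6d are below 0 in both, and Plxnb2 and Plxnd1 have 1 difference on each side.

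The neuropilins changed in opposite directions in all 3 treatments. Nrp1 (probe set 10576639) read 10.89 and 10.96 untreated, 9.95 and 10.01 under IFN-gamma/LPS, 9.56 and 9.52 under IL-4/IL-13, and 9.94 and 9.61 under LPS/IL-4/IL-13. Nrp2 (probe set 10346843) read 10.78 and 10.87 untreated, 11.70 and 11.80 under IFN-gamma/LPS, 11.48 and 11.46 under IL-4/IL-13, and 11.94 and 11.82 under LPS/IL-4/IL-13. Every treated array was below both untreated arrays for Nrp1 and above both for Nrp2. Nrp1, a co-receptor for Sema3a and VEGF, fell 1.93-fold, 2.61-fold and 2.22-fold (-0.94, -1.38 and -1.15, each ± 0.10, adjusted p = 5.45e-06, 1.48e-06 and 1.14e-06). Nrp2, a co-receptor for Sema3f and VEGF-C, rose 1.90-fold, 1.56-fold and 2.08-fold (0.93, 0.65 and 1.05, each ± 0.07, adjusted p = 1.99e-07, 3.14e-05 and 7.46e-08).

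IL-4/IL-13 gave the lowest Nrp1 mean, 0.44 ± 0.10 below IFN-gamma/LPS (adjusted p = 0.00308), while the LPS/IL-4/IL-13 differences from IL-4/IL-13 (0.24, adjusted p = 0.0937) and from IFN-gamma/LPS (-0.20, adjusted p = 0.213) did not pass. Without LPS/IL-4/IL-13 array 1 the latter was -0.37 (adjusted p = 0.00553), and without array 2 the former was 0.40 (adjusted p = 0.0013). Nrp2 was 0.41 ± 0.07 higher under LPS/IL-4/IL-13 than under IL-4/IL-13 (adjusted p = 0.000355). Its excess of IFN-gamma/LPS over IL-4/IL-13, 0.28 ± 0.07 (adjusted p = 0.0048), was 0.19 and missed the threshold after quantile normalization (adjusted p = 0.0508).

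Smaller changes were called in 11 further genes, of which 8 were semaphorins and 3 plexins. Sema4d, a membrane semaphorin that binds Plxnb1, Plxnb2 and Cd72, read 10.78 and 10.78 untreated, 10.34 and 10.33 under IFN-gamma/LPS, 9.92 and 9.81 under IL-4/IL-13, and 10.88 and 10.67 under LPS/IL-4/IL-13. It fell by 0.44 (SE 0.08, adjusted p = 0.000645) and by 0.92 (SE 0.08, adjusted p = 8.74e-06) in the first 2 treatments, while LPS/IL-4/IL-13 overlapped untreated (-0.005 ± 0.08, adjusted p = 0.967). A dimmer second probe set of Sema4d disagreed: it read 7.24 and 7.17 untreated, 6.92 and 7.03 under IFN-gamma/LPS, 6.88 and 6.81 under IL-4/IL-13, and 6.88 and 6.86 under LPS/IL-4/IL-13, and so stayed below untreated there. With both probe sets averaged, the Sema4d difference between the LPS-containing groups was 0.17 and was not called (adjusted p = 0.252), against 0.44 ± 0.08 (adjusted p = 0.0022) for the brighter one.

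Sema7a, the lipid-anchored semaphorin that acts on Plxnc1 and on the integrin of Itga1 and Itgb1, read 7.15 and 6.84 untreated, 7.41 and 7.59 under IFN-gamma/LPS, 6.56 and 6.89 under IL-4/IL-13, and 7.64 and 7.54 under LPS/IL-4/IL-13. All 4 LPS arrays lay above the other 4. It rose by 0.51 ± 0.14 (adjusted p = 0.00926) and 0.60 ± 0.14 (adjusted p = 0.00383) in the LPS-containing groups. Without untreated array 2 these became 0.35 (adjusted p = 0.11) and 0.44 (adjusted p = 0.0591), and without IFN-gamma/LPS array 2 the first became 0.42 (adjusted p = 0.0647). Its receptor Plxnc1 fell in the groups in which Sema7a rose.

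Sema6b read 7.36 and 7.50 untreated, 6.88 and 7.02 under IFN-gamma/LPS, 7.62 and 7.57 under IL-4/IL-13, and 7.45 and 7.61 under LPS/IL-4/IL-13. It was low in IFN-gamma/LPS, where it fell by 0.48 (SE 0.11, adjusted p = 0.00239), and was 0.58 ± 0.11 higher under LPS/IL-4/IL-13 than there (adjusted p = 0.00188). After quantile normalization the fall was 0.26 in size and not called (-0.26, adjusted p = 0.066), and the LPS/IL-4/IL-13 difference from untreated, 0.10 ± 0.11 (adjusted p = 0.468), became 0.31 and was called (adjusted p = 0.0337). Its second probe set held the same values on all 8 arrays. Sema4b read 6.93 and 6.96 untreated, 6.86 and 7.01 under IFN-gamma/LPS, 7.17 and 7.17 under IL-4/IL-13, and 6.51 and 6.71 under LPS/IL-4/IL-13, and was 0.56 ± 0.11 lower in the last group than under IL-4/IL-13 (adjusted p = 0.00111). Its fall from untreated there (-0.34 ± 0.11, adjusted p = 0.024) was not called after quantile normalization (-0.19, adjusted p = 0.187), without LPS/IL-4/IL-13 array 1 (-0.23, adjusted p = 0.131), without untreated array 1 (-0.35, adjusted p = 0.0905) or without untreated array 2 (-0.32, adjusted p = 0.108). Plxna4, a receptor for class 3 semaphorins, read 6.78 and 6.71 untreated and 6.25 and 6.25 under IL-4/IL-13, where it fell by 0.50 (-0.50 ± 0.10, adjusted p = 0.00337).

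The other 6 of these genes were Sema3d, Sema4f, Sema4g, Sema6a, Plxna3 and Plxnb3, and none was called in more than 2 comparisons. Plxna3 was 0.57 lower under IFN-gamma/LPS than under IL-4/IL-13 (-0.57 ± 0.15, adjusted p = 0.00888), and Plxnb3 fell under LPS/IL-4/IL-13 (-0.44 ± 0.13, adjusted p = 0.017). Sema3d rose by 0.44 ± 0.14 and 0.46 ± 0.14 in the LPS-containing groups (adjusted p = 0.0207 and 0.0197). Without untreated array 1 these were 0.29 and 0.30 and not called. The Sema4f, Sema4g and Sema6a increases from untreated lay between 0.30 and 0.41. Each call in this paragraph was lost when at least 1 array was left out. After quantile normalization, limma also lost the calls of Plxnb3 (-0.33, adjusted p = 0.0799), Sema4f (0.25, adjusted p = 0.113) and Sema6a (0.26, adjusted p = 0.0603). So were those of Sema3d under IFN-gamma/LPS (0.34, adjusted p = 0.052) and Sema4g under IL-4/IL-13 (0.26, adjusted p = 0.119).

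No comparison was called for Sema3a, Sema3b, Sema3e, Sema3f, Sema3g, Sema5a, Sema5b, Sema6c and Plxnb1, the receptor for Sema4d. Their group means spanned between 0.09 (Sema6c) and 0.30 (Sema3e). Plxnb1, for example, read 6.16 and 6.22 untreated and 6.23 to 6.48 in the treated groups. The arrays came without detection calls, so these values show neither presence nor absence. For LPS/IL-4/IL-13 minus untreated, Sema3f was called after quantile normalization (0.35, limma adjusted p = 0.0192). Sema3e was called there after centring arrays on their medians (0.31, limma adjusted p = 0.0404). Without LPS/IL-4/IL-13 array 1, the Sema3b and Sema5b differences there were 0.415 and 0.375, against 0.275 and 0.195 with it. In the fit without dim genes, 23 of the 31 genes were kept, and Sema3a, Sema3d, Sema3e, Sema4f, Sema4g, Sema5a, Sema6a and Sema6c were not.

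The partner and marker lists below are read beside the shares of all named genes called. These were 23.6% higher and 28.4% lower under IFN-gamma/LPS, 7.83% and 12.3% under IL-4/IL-13, and 20.3% and 25.4% under LPS/IL-4/IL-13. The small lists of receptors, VEGF ligands and proteases are given as counts only, with nothing read from them about the list. Of other receptors of semaphorins and co-receptors of plexins and neuropilins, 5 of 14 rose and 4 fell under IFN-gamma/LPS, 3 rose and 1 fell under IL-4/IL-13, and 5 rose and 3 fell under LPS/IL-4/IL-13. Flt1, the VEGF receptor that also binds placental growth factor, read 5.68 and 5.95 untreated, 7.44 and 7.40 under IFN-gamma/LPS, 9.50 and 9.21 under IL-4/IL-13, and 10.73 and 10.62 under LPS/IL-4/IL-13. It rose by 1.60 ± 0.12, 3.54 ± 0.12 and 4.86 ± 0.12 (adjusted p = 2.51e-07, 3.83e-09 and 1.79e-11), with no overlap between groups. Kdr, the main VEGF-A receptor and a partner of neuropilin 1, read 5.79 and 5.67 untreated, 9.45 and 9.50 under IFN-gamma/LPS, 5.89 and 5.52 under IL-4/IL-13, and 7.60 and 7.30 under LPS/IL-4/IL-13. Kdr rose by 3.75 ± 0.14 and 1.72 ± 0.14 in the LPS-containing groups (adjusted p = 4.27e-10 and 5.68e-07) and was at -0.02 ± 0.14 under IL-4/IL-13 (adjusted p = 0.914).

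Flt1 and Kdr are also endothelial genes. Of 6 markers of endothelial cells, 3 rose under IFN-gamma/LPS, 0 under IL-4/IL-13 and 1 (Cdh5, 0.84) under LPS/IL-4/IL-13, and none fell. Their summed unlogged signal ran from 227 to 252 in untreated cells, and 295 to 298, 265 to 276 and 304 to 311 in the 3 treatments. Of the 6, 0 exceeded the median of all named genes in untreated cells, 0 under IFN-gamma/LPS and 0 under IL-4/IL-13. Under LPS/IL-4/IL-13, 1 did (Cdh5, mean 6.66 beside a median of 6.275). Their part in the result was not tested.

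Partners of the receptors went both ways. Trem2 and Tyrobp, which pair with Plxna1, fell under IFN-gamma/LPS (-0.82 ± 0.10 and -0.84 ± 0.06) and LPS/IL-4/IL-13 (-1.05 ± 0.10 and -0.83 ± 0.06), with adjusted p from 9.62e-08 to 1.71e-05. Under IL-4/IL-13 Tyrobp fell too (-0.27 ± 0.06, adjusted p = 0.00606), and Trem2 was at -0.17 ± 0.10 (adjusted p = 0.238). Cd72, a receptor for Sema4d, fell under IFN-gamma/LPS (-0.95 ± 0.07, adjusted p = 1.19e-07), and was 0.01 ± 0.07 from untreated under LPS/IL-4/IL-13 (adjusted p = 0.915). Of the integrin chains for Sema7a, Itga1 rose in each treatment, by 1.05, 0.92 and 1.45 (each ± 0.15), and Itgb1 gave 0.13, 0.12 and 0.20 (each ± 0.09) and was not called.

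Of the 4 VEGF ligands that bind neuropilins, 2 rose and 1 fell under IFN-gamma/LPS and under IL-4/IL-13, and 2 rose and 2 fell under LPS/IL-4/IL-13. Pgf, placental growth factor, read 5.34 and 5.37 untreated, 5.93 and 5.67 under IFN-gamma/LPS, 6.64 and 6.11 under IL-4/IL-13, and 8.05 and 8.06 under LPS/IL-4/IL-13. It was highest in that last group, 2.70 ± 0.16 above untreated (adjusted p = 2.83e-08). Vegfa fell under IL-4/IL-13 (-1.24 ± 0.13, adjusted p = 2.70e-05) and LPS/IL-4/IL-13 (-0.94 ± 0.13, adjusted p = 6.15e-05), with arrays of 8.49 and 8.47 in both untreated and IFN-gamma/LPS cells.

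Among 5 proteases that cut or shed semaphorins, 2 rose and 2 fell in each LPS-containing group, and 1 fell under IL-4/IL-13. Mmp14, a membrane metalloproteinase that can release Sema4d, read 6.15 and 6.16 untreated, 9.41 and 9.39 under IFN-gamma/LPS, 5.96 and 6.20 under IL-4/IL-13, and 11.19 and 11.16 under LPS/IL-4/IL-13. The LPS-containing groups were high and separate from each other, at 3.25 ± 0.10 and 5.02 ± 0.10 above untreated (adjusted p = 9.30e-11 and 3.98e-12). Furin, which processes secreted semaphorins, rose by 1.35 ± 0.09 and 0.56 ± 0.09 in those groups, and the sheddase gene Adam10 fell there (-1.50 ± 0.09 and -0.57 ± 0.09).

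Among intracellular mediators of plexin signalling more genes fell than rose in the LPS-containing groups. Over all named genes falls also outnumbered rises, but by a smaller margin. Of these, 28.4% fell and 23.6% rose under IFN-gamma/LPS, and 25.4% fell and 20.3% rose under LPS/IL-4/IL-13. The difference between the list and all named genes was not tested. Of 33 measured among 35 listed, 20 fell and 6 rose under IFN-gamma/LPS (median -0.44, beside 0.11 over all named genes), 16 fell and 6 rose under LPS/IL-4/IL-13 (median -0.14, beside 0.09), and 4 fell and 2 rose under IL-4/IL-13 (median -0.08, beside 0.07). Rras, a small GTPase that plexins inactivate, fell (-1.81 ± 0.08 under IFN-gamma/LPS and -1.01 ± 0.08 under LPS/IL-4/IL-13), as did Sh3bp1, a Rac-inactivating protein (-2.20 ± 0.08 and -0.98 ± 0.08), and the tyrosine kinase gene Fes (-1.51 ± 0.08 and -1.31 ± 0.08). Rnd3, one of the Rnd GTPases that bind plexins, read 7.84 and 7.72 untreated, 10.53 and 10.66 under IFN-gamma/LPS, 6.22 and 6.09 under IL-4/IL-13, and 9.94 and 9.54 under LPS/IL-4/IL-13. It rose by 2.81 ± 0.13 and 1.96 ± 0.13 in the LPS-containing groups and fell under IL-4/IL-13 (-1.63 ± 0.13), with adjusted p from 2.28e-09 to 2.58e-06. Fyn, a kinase downstream of plexin A, rose in all 3 treatments, by 1.07 ± 0.07, 1.88 ± 0.07 and 1.11 ± 0.07. Of the collapsin response mediators, Dpysl2 read 11.53 and 11.36 untreated, 10.29 and 10.47 under IFN-gamma/LPS, 11.27 and 11.14 under IL-4/IL-13, and 11.88 and 11.73 under LPS/IL-4/IL-13. It was lowest under IFN-gamma/LPS, where it fell (-1.06 ± 0.09, adjusted p = 6.08e-07), and highest under LPS/IL-4/IL-13, where it rose (0.36 ± 0.09, adjusted p = 0.00536). Its relatives Crmp1 and Dpysl3 were called in no comparison.

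**Figure D4:**
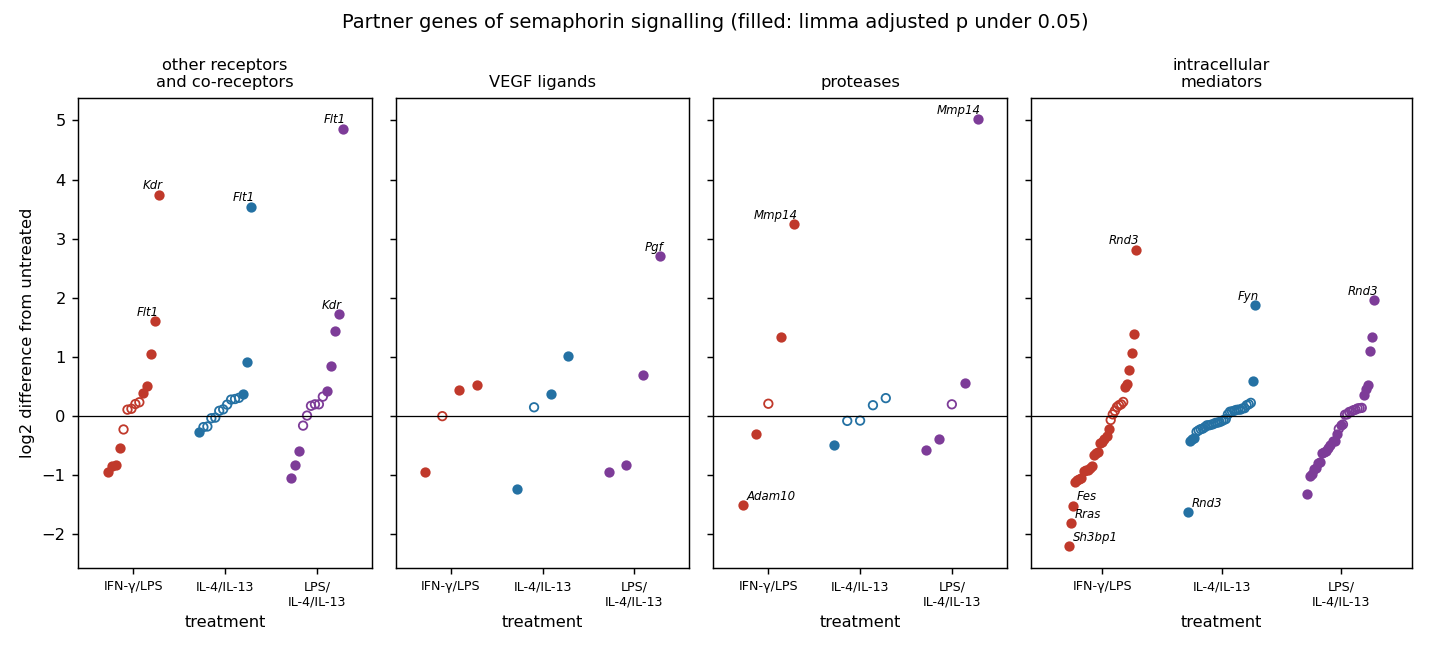
Log2 difference from untreated for the genes of the 4 partner lists (panels) under IFN-gamma/LPS (red), IL-4/IL-13 (blue) and LPS/IL-4/IL-13 (purple), 1 point per gene sorted within a treatment, filled where the limma adjusted p was under 0.05, with larger differences named. Mmp14 and Flt1 are the highest points under LPS/IL-4/IL-13 at 5.02 and 4.86, and Sh3bp1 is the lowest under IFN-gamma/LPS at -2.20.

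Levels set beside the median named gene do not show presence, as probe sets differ in brightness. Of 9 macrophage markers, 9 lay above that median in every group. Their summed unlogged signal ran from 40496 to 40729 in untreated arrays, 34823 to 35335 under IFN-gamma/LPS, 35538 to 35688 under IL-4/IL-13 and 36444 to 37483 under LPS/IL-4/IL-13, with 2 of 9 up and 6 down in each LPS-containing group and 5 down under IL-4/IL-13. Of 6 dendritic cell markers, 4 rose under IFN-gamma/LPS, led by Ccr7 (2.94) and Xcr1 (2.25), 1 under IL-4/IL-13 and 2 under LPS/IL-4/IL-13, and their summed signal was 301 to 330 untreated, 991 to 1043, 375 to 400 and 440 to 463. Fibroblast markers had 1, 0 and 2 of 6 up in the 3 treatments (sums 623 to 628 untreated, 703 to 744, 617 to 667 and 788 to 793), T and NK markers had 2, 2 and 0 of 6 up with Cd4 down in each (sums 508 to 513, 394 to 404, 393 to 436 and 370 to 383), and neutrophil markers had 0, 1 and 1 of 5 up and 2, 0 and 1 down (sums 348 to 356, 291 to 304, 360 to 370 and 368 to 414). Of 3 measured B lymphocyte markers 0 were called (sums 65.1 to 73.9, 75.0 to 77.7, 73.7 to 77.4 and 80.0 to 85.7). Of all named genes, 23.6% rose and 28.4% fell under IFN-gamma/LPS, 7.83% and 12.3% under IL-4/IL-13, and 20.3% and 25.4% under LPS/IL-4/IL-13. With lists this small, nothing is read from the marker counts about cell types. The part of these cell types in the results above was not tested.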

How the data were processed

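Total RNA of 8 macrophage samples was hybridised to Affymetrix mouse gene arrays. The deposited table holds a log2 signal per probe set, read as log2 from its range of 1.46 to 13.71, although the column is named a MAS5 signal per the labels. How the authors corrected background and normalized is not given in the sources available. Of 35556 probe sets, 21789 carried 1 symbol in the platform annotation, 1621 several and 12146 none, and 0 columns lay outside the samples. The brightest probe set stood for each of 19938 named genes.

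Groups and replicate numbers came from the sample titles. The fit of 4 group means used R 4.3.3 and limma 3.58.1 (mean-variance trend, 4 residual and 7.55 prior degrees of freedom), tested on simulated data, and adjusted by Benjamini-Hochberg over all named genes within each of 6 comparisons. Genes called with at least a 2-fold change are given on every array. Of each of 4 partner lists, at most 4 genes are named for the size of their called change and at most 2 that were not called. Partner genes beyond these, such as Trem2, Tyrobp, Cd72 and Dpysl2, and the marker genes named from 7 marker lists were picked after their values were seen. Members and lists were chosen with earlier results of these data known. The alternatives tried were centring arrays on their medians, quantile normalization, dropping genes under the 40th percentile of mean signal, no trend, a fit of only the 4 arrays compared, replicate number as a block, averaging a gene's probe sets, a 2-fold threshold, and leaving out each array. With 2 arrays per group, their number limits the precision.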

Additional observations from a re-analysis of the deposited data

How the results depend on the processing

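Of 186 gene results over the 6 comparisons, 80 were called, and 0 of these changed sign and 18 were lost under at least 1 alternative. Results called only under an alternative, such as that of Sema3f, are outside these counts. The 34 calls of at least 2-fold all stayed called by adjusted p under every alternative run, but not all stayed at least 2-fold. Plxna1, for example, read 9.64 on LPS/IL-4/IL-13 array 1, less than 2-fold below its IL-4/IL-13 mean of 10.56. With that 2-fold threshold the family's counts were 7 for IFN-gamma/LPS against untreated, 2 for IL-4/IL-13, 9 for LPS/IL-4/IL-13, then 3, 6 and 7 between the treatments in the order of the text, instead of 16, 10, 16, 8, 14 and 16. Leaving out each array gave 14 to 17, 8 to 9, 12 to 16, 7 to 10, 13 to 14 and 15 to 16. Replicate numbers showed no common pairing of the arrays (correlations of deviations between -0.36 and 0.22 across named genes). The sign of each correlation depends on how the 2 arrays were numbered, and batches that cross these numbers were not tested. The replicate block gave 16, 9, 16, 9, 14 and 16. Where an array was left out, the lone array was assumed to vary like the other groups. Without detection calls, signal over background could not be judged.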
